A study of Mus musculus with 34 samples.

Results

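Open chromatin was compared between the start and the end point of a reprogramming experiment, in which mouse embryonic fibroblasts (MEF) are driven towards the vessel lineage. The cells are iHA-Etv2 MEF, in which doxycycline switches on an inducible copy of the transcription factor Etv2. The starting group was MEF at day 0 without doxycycline (2 samples). The end group was MEF after 7 days with doxycycline, sorted as positive for Flk1, the receptor encoded by Kdr (2 samples). These are 4 of the 34 samples of the series, which also holds induced MEF at days 1, 2 and 7 without a sort, MEF with knockdown of the chromatin remodeller Brg1 with and without doxycycline, and EB, the embryoid bodies that embryonic stem cells form as they differentiate. The series further holds Brg1-floxed cells at day 4 with and without 4OHT. Both groups compared carry the inducible Etv2 and neither has the Brg1 knockdown. The labels give no strain, age, promoter or number of founder cultures, and the sort leaves out cells that did not reach the Flk1 gate.

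Etv2 is an ETS-family factor that is needed early for endothelial and blood progenitors. ETS factors bind DNA around the letters GGAA, and endothelial enhancers often pair such a site with one for a forkhead factor. Fibroblast enhancers are known for sites of AP-1, the family of Fos and Jun proteins. In ATAC-seq a transposase cuts accessible DNA, so promoters and active enhancers appear as peaks, and a summit is the base of highest signal within a peak.

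Each group is represented by 1 list of summits shared by its 2 samples, so no difference below has a replicate error or a p-value. The Flk1-positive list held 29520 summits and the fibroblast list 62028, on chromosomes 1 to 19 and X. A summit with a summit of the other list within 250 bp was called shared, and any other was called sorted-only or fibroblast-only. In all, 7270 summits were sorted-only, which is 24.6% of the Flk1-positive list (95% exact interval 24.1 to 25.1%, counting error only). The fibroblast-only summits numbered 40101, or 64.6% of the fibroblast list (64.3 to 65.0%), and 35.4% were kept (35.0 to 35.7%). With the 29520 highest-scoring summits of each list, 11941 were sorted-only (40.5%) and 12535 fibroblast-only (42.5%). Of those 11941, the whole fibroblast list held a summit within 250 bp of 4671. The large excess of fibroblast-only over sorted-only summits was seen in the whole lists. Lists of equal length with nearly equal numbers of shared summits must leave nearly equal remainders. The close counts with equal numbers thus follow from the cut and do not bear on the excess. Absence from a list is not absence of open chromatin.

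The limit of 250 bp falls within a slope: 1201 sorted summits lay 201 to 250 bp from a fibroblast summit and 813 lay 251 to 300 bp away. Of the sorted-only summits 3192 had a fibroblast summit within 1 kb, and many of these can be a moved summit within the same open region. The other 4078, or 13.8% of the Flk1-positive list (13.4 to 14.2%), had none within 1 kb and are called isolated here. This class was set after the data had been seen.

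Sequences were read at the starts of genes only, and few isolated summits lie there. RefSeq promoter sequences (GRCm38.p6, which has the coordinates of mm10) were at hand for 21045 starts of 17274 genes. With a summit within 500 bp taken as open, 9093 starts were open in both lists, 161 in the Flk1-positive list only (0.765%) and 1992 in the fibroblast list only (9.47%). Of the 161 starts, 61 (of 60 genes) had no fibroblast summit within 1 kb of the start. The next lines print the 200 bases before 4 of these 61 starts, 5′ to 3′ on the strand of the gene, with the ETS letters AGGAAG, CAGGAAGT and AACAGGAA (the last as a forkhead-ETS pair) in capitals on either strand. Arhgef7, Adgrf5 and 1700018F24Rik have the highest sorted scores (18.6, 15.1 and 13.5) among those with such letters in these 200 bases. Clec14a is shown as an endothelial gene without them.
Arhgef7: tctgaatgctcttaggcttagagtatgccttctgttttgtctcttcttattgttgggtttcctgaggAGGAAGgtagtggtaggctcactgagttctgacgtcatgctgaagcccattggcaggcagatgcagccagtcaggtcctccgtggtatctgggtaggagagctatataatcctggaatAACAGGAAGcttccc
Adgrf5: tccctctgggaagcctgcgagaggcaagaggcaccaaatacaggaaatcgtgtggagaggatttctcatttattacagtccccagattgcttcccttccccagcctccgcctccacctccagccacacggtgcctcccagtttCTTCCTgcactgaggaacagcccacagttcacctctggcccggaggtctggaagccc
1700018F24Rik: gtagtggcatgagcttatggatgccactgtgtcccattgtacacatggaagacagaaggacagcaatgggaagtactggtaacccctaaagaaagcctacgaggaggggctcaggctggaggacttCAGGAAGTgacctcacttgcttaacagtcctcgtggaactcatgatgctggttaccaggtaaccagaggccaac
Clec14a: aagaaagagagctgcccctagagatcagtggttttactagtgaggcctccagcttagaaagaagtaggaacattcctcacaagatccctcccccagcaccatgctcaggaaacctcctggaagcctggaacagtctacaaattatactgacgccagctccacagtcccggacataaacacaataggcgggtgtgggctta
The stretches are chr8:11779084-11779283 (plus strand), chr17:43360231-43360430 (plus), chr5:145042790-145042989 (plus) and chr12:58269259-58269458 (minus). The Arhgef7 stretch precedes an internal start of this gene for a guanine nucleotide exchange factor, and its AACAGGAA begins 15 bases before the start.

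The opposite case is a start that was open in fibroblasts only and has the AP-1 letters TGANTCA. The next lines print 3 such starts with high fibroblast scores (56.2, 39.0 and 35.1), with the AP-1 letters in capitals.
Dclk1: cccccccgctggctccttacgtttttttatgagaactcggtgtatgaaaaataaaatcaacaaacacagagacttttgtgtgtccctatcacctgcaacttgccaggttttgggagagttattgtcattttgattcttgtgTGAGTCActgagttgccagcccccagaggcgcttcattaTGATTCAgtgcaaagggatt
Sumf2: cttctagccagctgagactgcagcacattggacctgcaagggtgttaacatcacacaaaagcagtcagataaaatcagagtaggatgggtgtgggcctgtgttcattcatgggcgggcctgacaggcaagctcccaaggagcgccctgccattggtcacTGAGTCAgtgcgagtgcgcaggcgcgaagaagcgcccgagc
Olr1: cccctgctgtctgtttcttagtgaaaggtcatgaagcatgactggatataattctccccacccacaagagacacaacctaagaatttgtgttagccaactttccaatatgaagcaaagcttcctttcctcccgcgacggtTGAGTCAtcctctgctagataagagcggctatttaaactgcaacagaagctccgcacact
They lie at chr3:55461528-55461727 (plus), chr5:129846790-129846989 (plus) and chr6:129507166-129507365 (minus). The nearest sorted summit lay at -60888 bp from the Dclk1 start, 31341 bp from the Sumf2 start and -25844 bp from the Olr1 start, where a minus sign means upstream. Dclk1 encodes a microtubule-associated kinase, Sumf2 a protein related to the sulfatase-modifying enzyme and Olr1 a receptor for oxidised lipoprotein. All 7 starts were picked after their values were seen.

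Of the 16 motifs counted across starts, those of ETS factors come first. AGGAAG was found in the 300-base window of 54.1% of the 61 isolated sorted-only starts (33 starts, 40.8 to 66.9%), against 34.1% of all 21045 starts and 37.1% of starts open in neither list. AACAGGAA was found in 13.1% (8 starts, 5.84 to 24.2%) against 2.41% of all starts and 2.84% of those open in neither. CAGGAAGT, which contains AGGAAG, was found in 11.5% (7 starts, 4.74 to 22.2%) against 3.27% of all starts. The letters CCGGAAGT, the ETS form common in housekeeping promoters, were in 1 of the 61 starts (1.64%, 0.0415 to 8.8%). They were in 9.96% of starts open in both lists, 5.2% of all starts and 0.806% of those open in neither. The interval for the 61 starts takes in the last 2 values. TGANTCA was in 1 of the 61 starts (1.64%), against 8.84% of fibroblast-only starts (7.63 to 10.2%) and 3.97% of starts open in both (3.58 to 4.39%). It was as frequent in starts open in neither list, at 9.6% (9.03 to 10.2%), so it did not mark fibroblast-only starts against closed ones. Letters of other factors were also more frequent in the 61 starts, with the E-box CATCTG in 26.2% (15.8 to 39.1%) against 14.4% of all starts and 19.2% of those open in neither. The forkhead letters TGTTTAC were in 9.84% (3.7 to 20.2%) against 3.03% and 3.86%. Base composition moved with these classes: the median number of CpG per window was 5 in the 61 starts, 4 in starts open in neither list, 17 in fibroblast-only starts and 23 in starts open in both. All counts cover both strands and describe letters, not bound sites.

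Among the 11085 starts open in fibroblasts, 82.0% were also open in the Flk1-positive list (81.3 to 82.7%). With TGANTCA in the window 67.2% were kept (361 of 537 starts, 63.1 to 71.2%), and without it 82.8% (82.0 to 83.5%). In starts with the fewest CpG (0 to 18 per window) these shares were 57.4% (51.8 to 62.8%) and 74.1% (72.6 to 75.6%). With 18 to 27 CpG they were 82.6% and 85.8%, and with 27 to 65 they were 82.2% and 87.9%, and in both groups the intervals overlapped. Starts with CCGGAAGT were kept in 89.5% (87.5 to 91.3%), against 81.3% without it (80.5 to 82.0%). Starts with CCAATCA, the letters of the general promoter factor NF-Y, were kept in 90.6% (88.9 to 92.2%) against 80.9%. The gap between starts with and without TGANTCA was thus widest in promoters with few CpG.

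Gene ends and high scores went with being kept. Of fibroblast summits within 1 kb of either end of a gene 66.5% were kept (65.7 to 67.2%), against 25.6% elsewhere (25.2 to 26.0%). Each summit's deposited score is a −log10 q value, which rises with depth, so scores were ranked within a list only. Fibroblast summits were split into 10 deciles by score. In decile 10, the highest, 98.3% of gene-end summits and 77.2% of the others were kept. In decile 6 the shares were 51.2% and 23.3%, and in decile 1 they were 10.7% and 9.09%, whose intervals overlapped. Gene-end summits made up 44.9% of kept fibroblast summits, 12.4% of fibroblast-only summits (12.0 to 12.7%) and 18.4% of sorted-only summits (17.5 to 19.3%). Among isolated sorted-only summits only 133 lay at a gene end, or 3.26% (2.74 to 3.85%), against 37.8% of those with a fibroblast summit at 250 bp to 1 kb. With summits within 500 bp of the other list counted as shared, the gene-end share of sorted-only summits was 8.2%, and with 100 bp it was 29.0%.

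**Figure D1:**
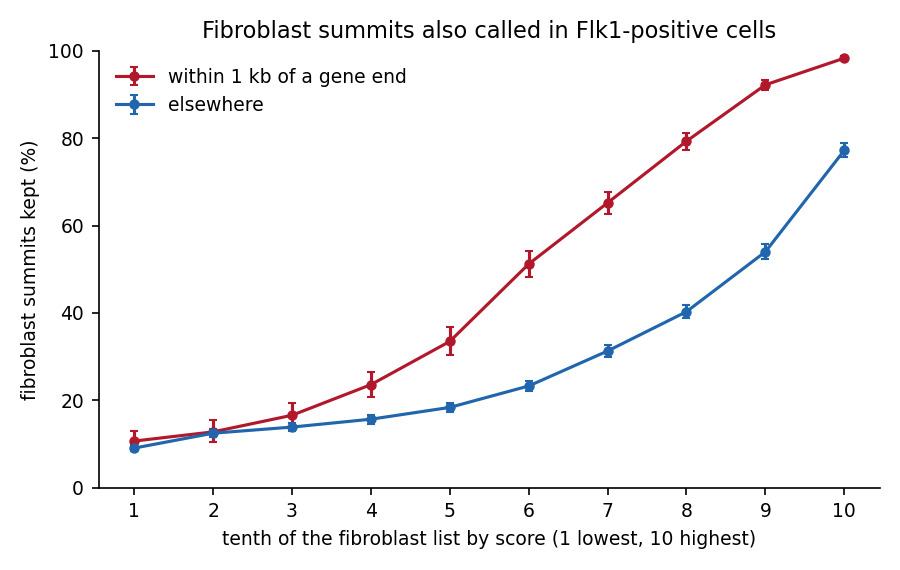
The x axis gives deciles of the fibroblast list by score and the y axis the percentage of its summits with a Flk1-positive summit within 250 bp, for summits within 1 kb of a gene end and elsewhere. Points are shares with 95% exact intervals: both lines rise with score, to 98.3% at gene ends and 77.2% elsewhere.

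Samples that took no part in the comparison show where else the classes are found. The knockdown MEF and the EB have lists with and without doxycycline, made alike as far as the written form of their scores shows. Their starting state was not the one compared, since knockdown MEF carry less Brg1 by design and EB are embryonic cells. The EB labels give a time of 12 h while their titles read D25, so 12 h is not taken as their age. The isolated sorted-only summits were present in 35.3% of cases in knockdown MEF at day 2 with doxycycline and in 18.0% without, although the induced list was the shorter (37772 against 44493 summits). At day 1 they were present in 18.9% with and 12.2% without, again with a shorter induced list (26882 against 35635). In EB the shares were 27.4% with and 18.9% without (77987 against 85498 summits). At day 7 they were 17.8% and 14.5%, where the induced list was the longer (13644 against 11188). After the longer list of each pair was shortened to its highest-scoring summits, the difference was 19.69 percentage points at day 2, 10.79 at day 1, 10.1 in EB and 1.13 at day 7. Each pair is 1 list against 1 list, so these differences have no replicate check.

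For fibroblast-only summits the difference had the other sign at day 1 in knockdown MEF, with 12.3% present with doxycycline and 26.6% without. At day 2 the shares were 25.2% and 29.7%, at day 7 2.74% and 2.48%, and in EB 23.4% and 23.8%. In lists of equal length the day-1 difference was -6.75 points and the others lay between -1.24 and 0.61. Shared summits, taken from the Flk1-positive list, were present in 72.3% with and 76.8% without doxycycline at day 1, and in 81.6% and 78.5% at day 2. At day 7 they were present in 27.8% and 25.0%, a difference of 2.81 points beside 3.29 for the isolated class, and in EB in 68.6% and 66.9%. So with doxycycline the isolated sorted-only summits were present more often in all 4 pairs, while fibroblast-only summits were present less often by more than 1 point at days 1 and 2 only.

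**Figure D2:**
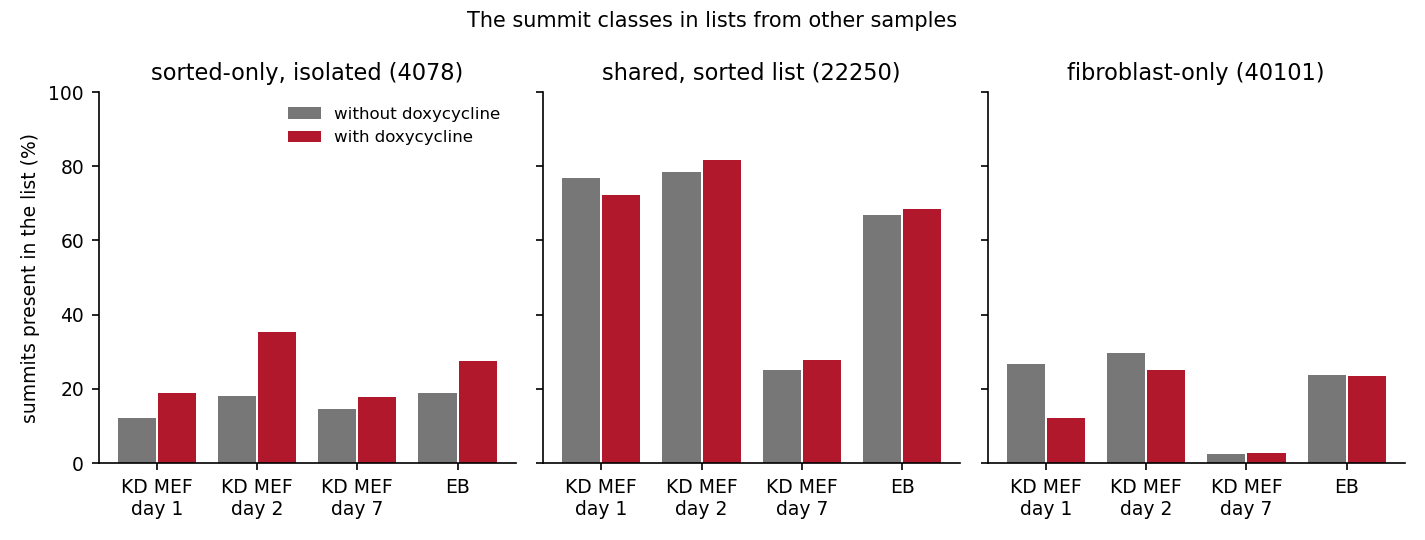
Bars give the percentage of each class of summits with a summit within 250 bp in lists from other samples, without (grey) and with (red) doxycycline; KD MEF are MEF with Brg1 knockdown and each bar is 1 list. The isolated sorted-only class stands at 18.0% and 35.3% at day 2, and the fibroblast-only class at 26.6% and 12.3% at day 1.

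The MEF without knockdown share the fibroblast control with the sorted cells, so their shares are given side by side only. Of isolated sorted-only summits 36.2% were called at day 1, 16.6% at day 2 and 17.7% at day 7 in unsorted cells. In none of the 17 other lists, which include those of Brg1-floxed cells, were 23.3% called. Of fibroblast-only summits 46.2% were called at day 1, 11.4% at day 2 and 3.6% at day 7 unsorted. A set of 1364 sorted-only summits was also called in the uninduced day-7 knockdown list, and 63.6% of these were in the unsorted day-7 list of MEF without knockdown. Of the other 5906 sorted-only summits 17.7% were in that list. Time in culture is shared by these day-7 cells, and its part in the result was not tested.

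Isolated summits were then counted around the genes of each list. Around endothelial transcription factor genes (within 50 kb of the gene) 18 of 79 sorted summits were isolated, or 22.8% (14.1 to 33.6%), against 11.4% (11.0 to 11.8%) of the sorted summits near any gene. Around the genes of the VEGF and angiopoietin pathways 11 of 53 were isolated, or 20.8% (10.8 to 34.1%), an interval that takes in the value for all genes. With no fibroblast summit within 5 kb asked for, the shares were 12.7% (6.2 to 22.0%), 13.2% (5.5 to 25.3%) and 8.46% over all genes, and both intervals took in the last. Counted by gene, 13 of 21 endothelial factors (61.9%) and 7 of 14 VEGF and angiopoietin genes (50%) had an isolated summit, against 18.0% of all 21631 genes. Lists that are not vascular also lay above that share, with 5 of 12 AP-1 genes (41.7%) and 13 of 40 fibroblast matrix genes (32.5%). The median gene was 14.8 kb long in the first list, 48.7 kb in the second and 17.3 kb over all genes. Longer genes take in more summits, and windows with more sorted summits can hold more isolated ones. Sorted summits, each counted once, numbered 79 for the 21 endothelial factors and 25036 for all 21631 genes. Windows of neighbouring genes overlap, so these totals do not give summits per gene. The part of gene length and of summit number in the counts by gene was not tested. With a window of 10 kb the shares of summits were 21.8% and 25.0%, against 9.8% over all genes.

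The other lists lay at or below 11.8%. Isolated summits were 8.75% of sorted summits around endothelial surface genes (7 of 80), 8.0% around Notch genes (4 of 50), 6.85% around blood genes (5 of 73) and 11.8% around fibroblast matrix genes (16 of 136). They were 5.17% around mesenchymal transcription factors (3 of 58), 2.22% around housekeeping genes (2 of 90), and none were found among 42 around smooth muscle genes and 11 around pluripotency genes. Such counts allow up to 8.4% and 28.5% by the exact interval. The intervals of the housekeeping list (0.27 to 7.8%) and the smooth muscle list thus lay below the 11.4% of all genes. The marker lists of cardiac, neural, skeletal muscle, epithelial and macrophage cells each had 1 or 2 isolated summits. Among the macrophage markers the start of Lyz2, for lysozyme, was open in the Flk1-positive list only, with a score of 5.3, and there was no fibroblast summit within 50 kb of the gene.

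**Figure D3:**
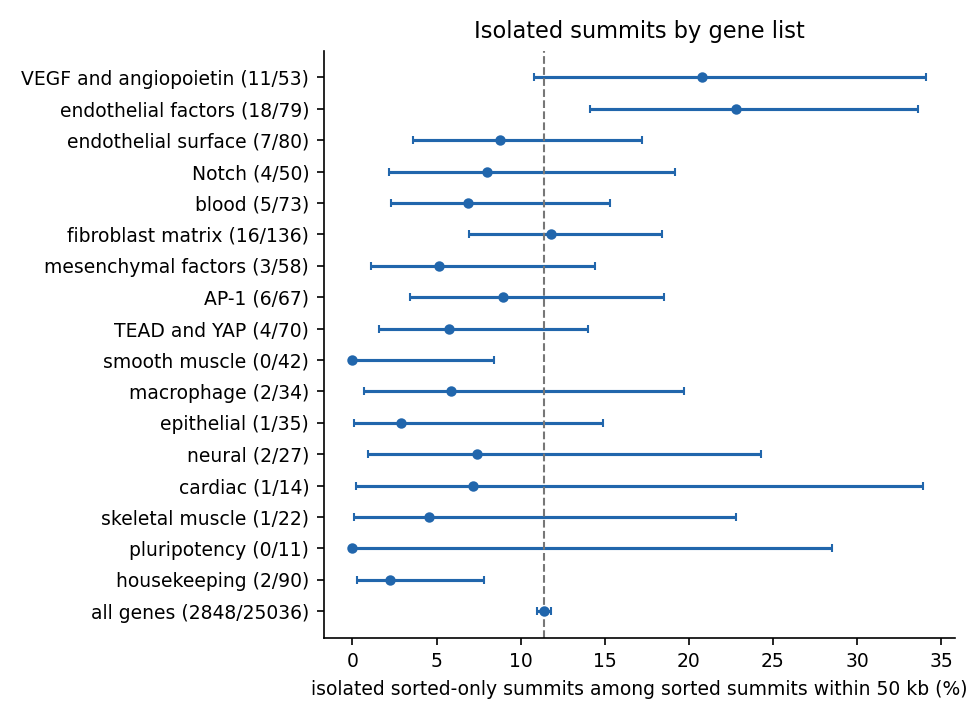
The x axis is the percentage of sorted summits within 50 kb of the genes of a list that are isolated, with 95% exact intervals, and the brackets give isolated over all sorted summits. The dashed line is the value over all genes, 11.4%; endothelial factors at 22.8% and VEGF and angiopoietin genes at 20.8% lie highest.

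The receptors come first. Kdr, the VEGF receptor used for the sort (chromosome 5, 75932827 to 75979072, minus strand), had 3 summits in the Flk1-positive list and 4 in the fibroblast list. Its start was open in both, with a score of 2.5 in the Flk1-positive list and 4.4 in fibroblasts. An isolated sorted summit lay 8.2 kb into the gene (score 3.1) and another beyond the 3′ end, 55.6 kb from the start (score 7.4). The highest fibroblast summit of the locus, 12.0 kb upstream at 102.9, had no sorted summit near it. With equal numbers of summits Kdr had 3 sorted-only and 1 fibroblast-only. At Kdr the summits seen in sorted cells only were thus distal, and the start had a summit in both lists. Flt4, the receptor for lymphatic growth factors, had a pair of isolated sorted summits 229 bp apart (scores 7.4 and 8.7) 6.2 and 6.4 kb beyond the gene, so close that they count 1 place 2 times. Nrp1, a co-receptor for VEGF, had 1 isolated sorted summit 28.3 kb into the gene (score 12.6), beside 13 fibroblast-only summits.

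Flt1, the decoy VEGF receptor, shows how the edge of the match rule works. Its start counted as open in sorted cells only, with a summit 352 bp downstream (score 7.4), but a fibroblast summit with a score of 13.4 lay 608 bp downstream, which is 256 bp from the sorted one. Among the ligands, Angpt1 had an isolated sorted summit in the gene with a score of 19.9. Angpt2 had 2 sorted-only and 0 fibroblast-only summits, with scores of 1.4 and 1.9, close to the lowest score a list can hold. Pgf, a placental relative of VEGF, had 0 sorted-only and 8 fibroblast-only summits. Tek, the angiopoietin receptor, had a single sorted summit, which is isolated (score 3.1), and 3 fibroblast-only ones.

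Among transcription factors, Klf2, a flow-responsive factor of endothelium (chromosome 8, 72319062 to 72321654), had the highest isolated summit of the vascular lists. It lay 23.2 kb upstream with a score of 29.4, 8.1 kb from the nearest fibroblast summit. A second isolated summit lay 37.2 kb upstream (score 8.8), and the start itself was open in both lists (29.8 in sorted cells, 64.8 in fibroblasts). In the whole window Klf2 had 3 sorted-only and 0 fibroblast-only summits. Hhex, a homeobox gene of early endothelium, had 2 sorted summits 10.3 and 13.6 kb downstream of its start, each with a score of 3.1, and none in fibroblasts, where the nearest summits lay 63.0 and 59.8 kb from them. Etv2 itself (chromosome 7, 30633616 to 30636509) had 5 sorted and 4 fibroblast summits, with 1 isolated sorted summit 3.4 kb upstream at a score of 8.1. Summits cannot separate the inducible from the endogenous copy where they share sequence. Mecom, a zinc finger factor of stem cells and endothelium, had 3 isolated sorted summits, the highest at 9.6, beside 18 fibroblast-only ones, but with equal numbers its net count turned to 1 more sorted-only. Foxo1, a forkhead factor, had 3 sorted-only and 3 fibroblast-only summits.

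**Figure D4:**
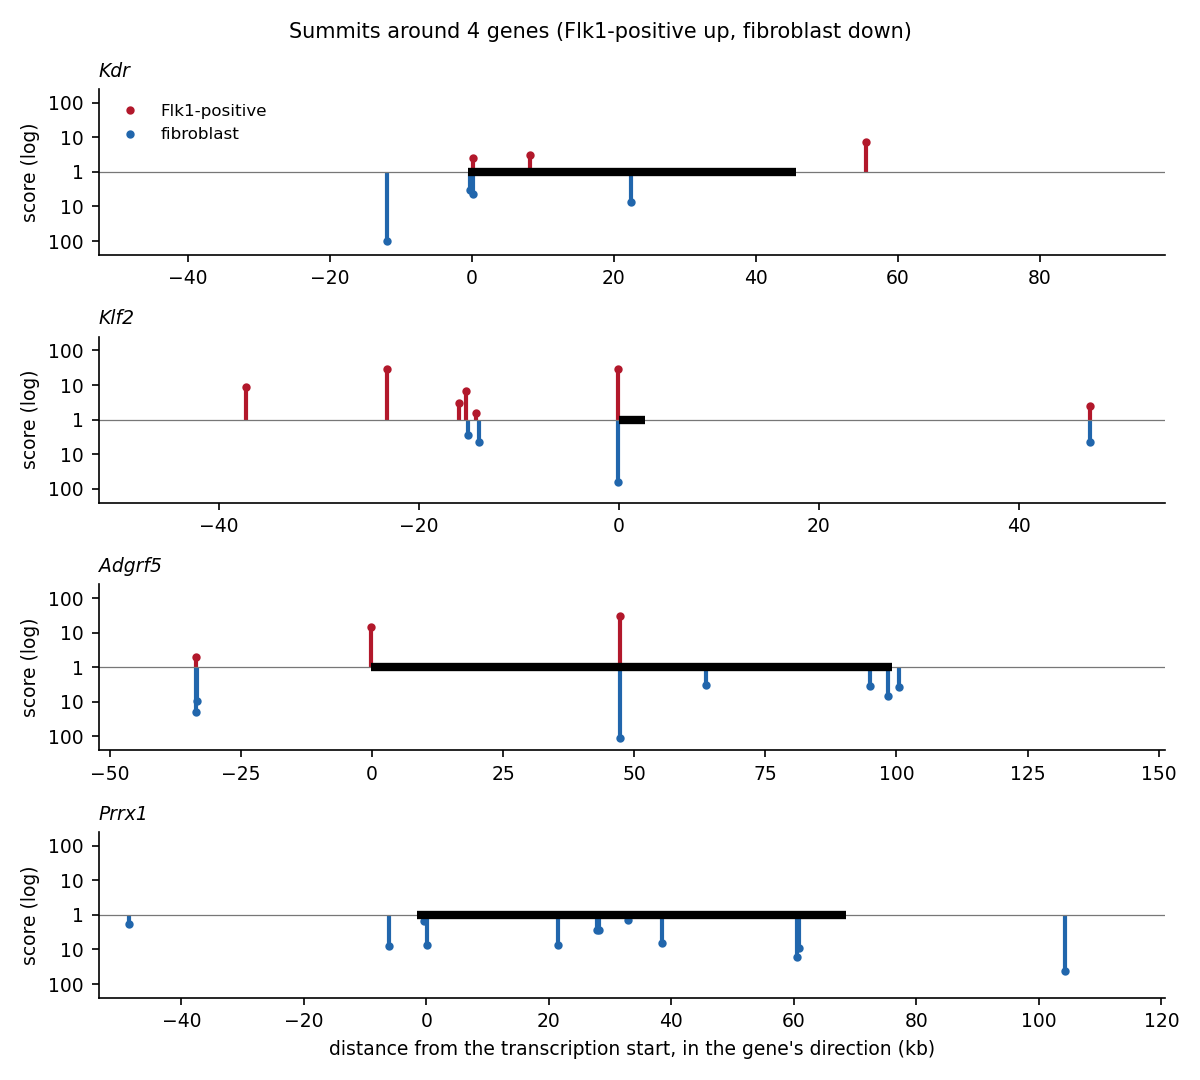
Summits around Kdr, Klf2, Adgrf5 and Prrx1, with distance from the transcription start in kb on the x axis, score on a log axis (Flk1-positive upward, fibroblast downward) and the gene as a black bar; scores are not comparable between the lists. Klf2 has an upstream sorted summit at 29.4 with no fibroblast partner, and Prrx1 has 12 fibroblast summits and 0 sorted.

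Of the 31 surface genes of mature endothelium 6 had an isolated summit (19.4%, against 18.0% of all genes). Within 10 kb 15.4% of their sorted summits were isolated (4.4 to 34.9%), against 9.8% over all genes. Adgrf5, an adhesion G protein-coupled receptor, had its start open in the Flk1-positive list only, with a summit 148 bp upstream (score 15.1) and the nearest fibroblast summit 33.2 kb from it. Clec14a, an endothelial lectin, had a summit 138 bp upstream of its start (score 9.6), with the nearest fibroblast summit 25.9 kb away. Of the 16 surface genes with a promoter sequence, these 2 had a start open in the Flk1-positive list only. Another 3 (Apln, Egfl7 and Procr) had a start open in fibroblasts only. For 12 VEGF and angiopoietin genes these counts were 1 (Flt1) and 3 (Tek, Vegfb and Vegfd). For 13 endothelial factors they were 0 and 2 (Mecom and Meox2). Over all starts the shares were 0.765% and 9.47%. Vwf, for von Willebrand factor, had 2 isolated sorted summits, at 14.3 and 2.0. Cdh5, for VE-cadherin, had 1 isolated summit in the gene (score 5.4) among 3 sorted-only and 6 fibroblast-only ones. Pecam1, for the junction protein CD31, had 0 sorted-only and 6 fibroblast-only summits. Stab2, a scavenger receptor of sinusoids, had 0 and 9, and Eng, a co-receptor for TGF-beta, had 0 and 11. Several defining endothelial genes thus had no sorted-only summit, and summits do not measure RNA. Fewer cells with an open site and less signal per cell cannot be told apart in these bulk samples.

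The 40 isolated summits of the vascular lists (VEGF and angiopoietin, endothelial factors, surface and Notch) can be followed in the other samples. In knockdown MEF at day 2, 23 were present with doxycycline and 6 without, and all 6 were also present with it. Over all 4078 isolated summits the day-2 shares were 35.3% and 18.0%. At day 1, 13 of the 40 were present with and 4 without, of which 1 only without, beside 18.9% and 12.2% over all isolated summits. In EB 13 were present with and 5 without, of which 1 only without, beside 27.4% and 18.9%. At day 7 the numbers were 4 and 1, beside 17.8% and 14.5%, and no test was made of the 40 against the rest. In MEF without knockdown 21 of the 40 were called at day 1, 3 at day 2 and 2 at day 7 in unsorted cells, beside 36.2%, 16.6% and 17.7%. More of the 40 were present with than without doxycycline in these 4 pairs, as was also so for isolated summits as a whole.

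The summit upstream of the Adgrf5 start was called in knockdown MEF with doxycycline at day 1 (12.8) and day 2 (16.7) and in neither list without, and in induced EB (3.1) but not in uninduced EB. The second Klf2 element, 37.2 kb upstream, was called with doxycycline at day 1 (6.3) and day 2 (13) and in none of the other lists followed. The stronger Klf2 summit, at 23.2 kb, was different. It was called in knockdown MEF at day 0 (10.8) and without doxycycline at days 1 (7.2) and 2 (11.2), which are lists of cells without induction. The Angpt1 summit was called in EB only, at 63.0 with doxycycline and 8.8 without. The Sox7 summit (5.4 in sorted cells; Sox7 is a factor of early endothelium) was called in induced EB (18.7), induced Flk1-positive EB (17.1) and knockdown MEF at day 2 with doxycycline (5.6), and in no uninduced list. The Cdh5 summit had the same pattern, at 18.2, 8.6 and 2.5, and was also called in MEF at day 1 (1.9). The Tek summit, 38.0 kb outside the gene, was called in uninduced EB (93.3), induced EB (97.2) and induced Flk1-positive EB (37.5). In knockdown MEF it was called at day 0 (8.0) and without doxycycline at days 1 (3.8) and 2 (6.8). With doxycycline it was called there at days 1 (2.8), 2 (3.3) and 7 (7.0).

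**Figure D5:**
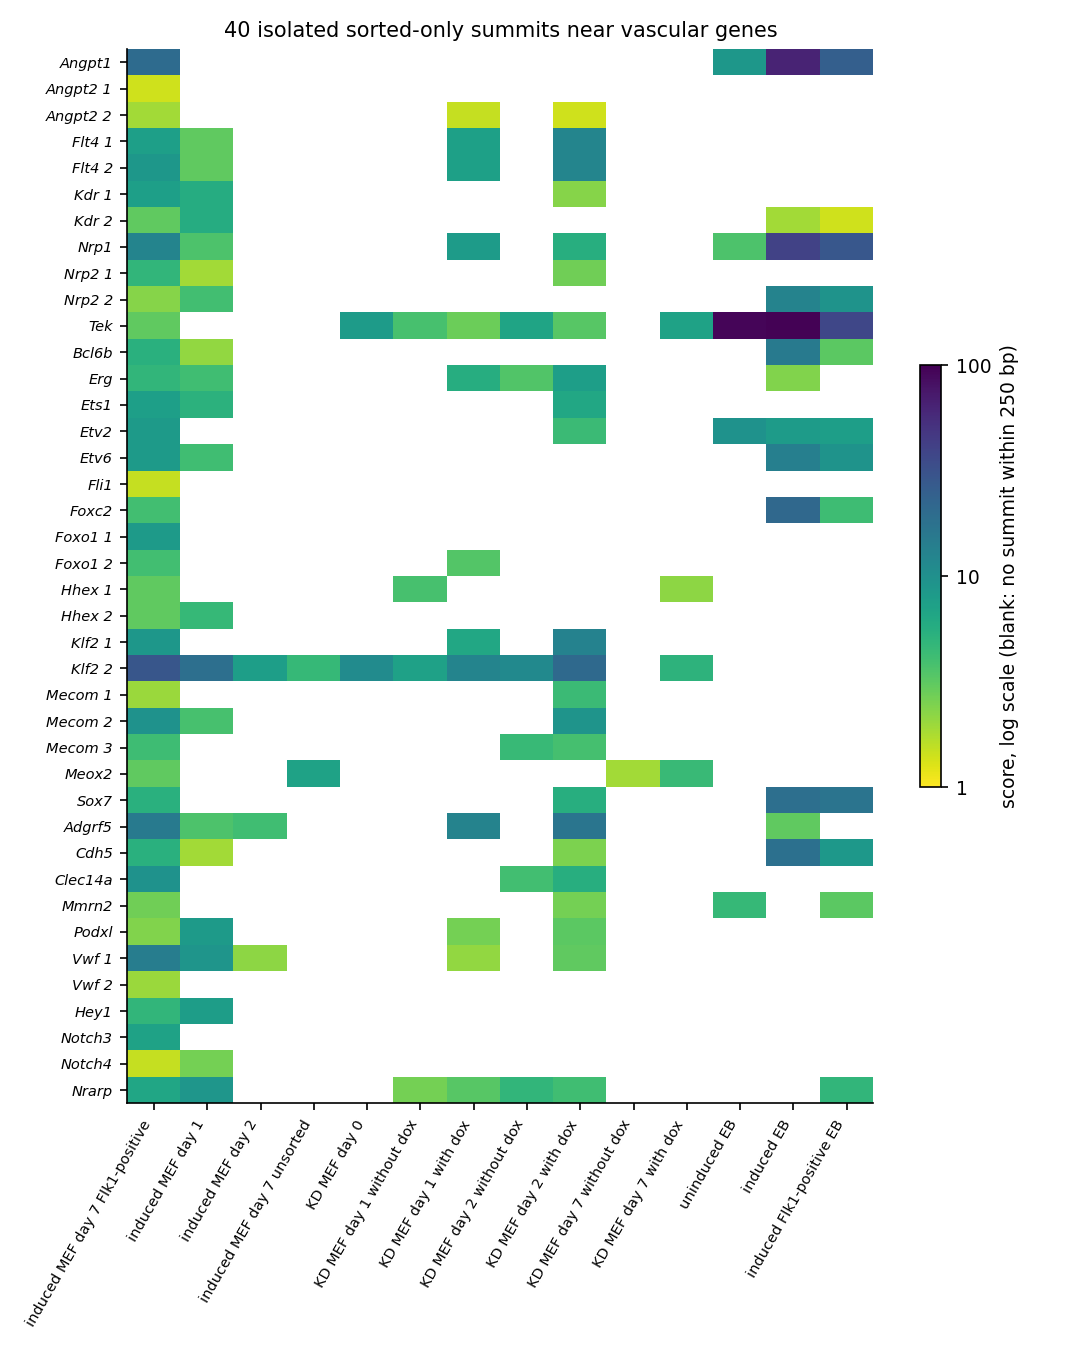
Each row is 1 isolated sorted-only summit near the named vascular gene and each column a list, with the score in colour on a log scale and blank where no summit lay within 250 bp. In knockdown (KD) MEF at day 2 there are 23 filled cells with doxycycline and 6 without.

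Blood genes share regulators with endothelium. Lmo2, a bridging factor of blood and vessel progenitors, had 2 sorted-only and 1 fibroblast-only summits. Its isolated summit (score 6.1) was also called in knockdown MEF at day 0 (10.1) and in uninduced EB (133.1), so it was also called in cells without doxycycline. Runx1, needed for blood formation from endothelium, had 0 sorted-only and 16 fibroblast-only summits. Of the 22 blood genes 5 had an isolated summit (22.7%, against 18.0% of all genes). Hey1, a target of Notch, had 2 sorted-only and 0 fibroblast-only summits, and 4 of the 14 Notch genes had an isolated summit.

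On the fibroblast side, summits missing from the sorted list were found near many genes. Prrx1 (chromosome 1, 163245119 to 163315145) encodes a homeobox factor of mesenchyme, and it had 12 fibroblast summits, with scores from 1.4 to 42.6, and 0 sorted summits. Prrx2, its relative, had 12 fibroblast-only summits and 1 shared. Runx2, a factor of bone-forming cells, had 20 fibroblast-only and 6 shared summits, and a shared one had a score of 123.1 in fibroblasts and 15.9 in sorted cells. Scores are not comparable between the lists, and over all shared summits the medians were 26.82 and 9.57. Col3a1, a fibrillar collagen, had 8 fibroblast summits and 0 sorted. Pdgfra, a receptor of fibroblast growth, had 4 and 0. S100a4 had 14 fibroblast-only and 1 sorted-only. Timp2, an inhibitor of matrix proteases, had 10 and 0. Fosl1, a subunit of AP-1, had 14 and 0, with 9 shared, but 2 and 3 with equal numbers of summits. Fosl2, another subunit, had 10 fibroblast-only and 1 sorted-only. Tead1, a partner of YAP, had 14 and 1. Foxp1 (chromosome 6, 98925342 to 99522746) had the most fibroblast-only summits of any gene, 30, with 12 shared and 0 sorted-only. The part of gene length in such counts was not tested. With equal numbers of summits, fibroblast-only and sorted-only counts were 2 and 0 for Prrx1, 3 and 0 for Prrx2 and 5 and 2 for Runx2. They were 6 and 1 for S100a4, 5 and 0 for Timp2, 2 and 1 for Fosl2, 5 and 1 for Tead1 and 12 and 2 for Foxp1. In the whole lists 75.7% of all genes had more fibroblast-only summits.

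Not every fibroblast gene followed. Twist1, a mesenchymal factor, had 3 sorted-only and 0 fibroblast-only summits, but all 3 lay 333 to 521 bp from the summit at its start, which was shared, so none was isolated. Fap, a surface protease of fibroblasts, had 1 sorted-only and 0 fibroblast-only. Of the 23 matrix genes with a promoter sequence, 1 (Postn) had a start open in the Flk1-positive list only. Among these genes 6 had a start open in fibroblasts only and 13 a start open in both. For 15 mesenchymal factors the counts were 0, 4 and 7 in the same order. Of fibroblast summits near matrix genes 26.9% were kept (22.5 to 31.7%), against 37.2% near all genes (36.7 to 37.6%). The share was 33.5% for mesenchymal factors (26.4 to 41.3%), 40.2% for AP-1 genes (31.6 to 49.2%) and 48.1% for housekeeping genes (39.9 to 56.2%). Near endothelial surface genes it was 28.9% (23.2 to 35.3%), as low as near matrix genes.

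Counted per gene over whole lists, most genes had more fibroblast-only than sorted-only summits. The part of list length in this was not tested. More sorted-only than fibroblast-only summits were found around 4 of 66 endothelial genes and 2 of 65 fibroblast genes, against 4.55% of all genes. More fibroblast-only were found around 58 and 57 of them, against 75.7% of all genes, and a sorted-only summit of any kind around 33 and 26, against 35.8%. The median net count per gene was -4 for endothelial genes, -5 for fibroblast genes and -2 for all genes. With equal numbers of summits 17 endothelial genes had more sorted-only and 29 more fibroblast-only, and for fibroblast genes the counts were 14 and 34. The same counts over all genes were 26.1% and 34.9%. These 66 endothelial genes are the VEGF and angiopoietin, factor and surface lists, and the 65 fibroblast genes are the matrix and mesenchymal factor lists. The share of endothelial genes with more sorted-only summits was thus close to that of all genes, at 4 of 66.

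Control genes are given for comparison. Smarca4, the gene of Brg1, had 7 summits in each list, of which 1 was sorted-only and 1 fibroblast-only. Gapdh, a glycolytic enzyme, had 1 sorted-only and 2 fibroblast-only summits, and Actb, for cytoplasmic actin, 0 and 6. The highest scores of both lists lay in dense clusters, and 79 bins of 100 kb with more than 15 summits in either list or a score above 1000 held 245 of the sorted-only and 713 of the fibroblast-only summits. Without them 7025 sorted-only and 39388 fibroblast-only summits were left.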

How the data were processed

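The submitters' processing notes name Bowtie2 2.2.4, MACS2, HOMER and the genome build mm10, with no role given. Versions of MACS2 and HOMER, trimming, duplicate handling, the cut-site shift and any blacklist are not given in the sources used here. The authors deposited 1 summit list per group of 2 samples, with a −log10 q value as the score of each summit, all above the q limit of 0.05. How replicates were joined is not given, and read depth was not analysed here. Lists with and without knockdown differ in the written form of their scores, so their scores and list lengths were not compared, and the presence of a summit in each is given as a description.

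Counts and intervals came from scripts in Python 3.11.15 (pandas 2.3.3, scipy 1.17.1, numpy 2.4.6), and plots from matplotlib 3.10.9. Shares carry exact Clopper-Pearson 95% intervals, which cover counting error only. Matching was tested on simulated lists. Gene intervals, starts and sequences are from RefSeq tables (GRCm38.p6). The sequence table is not complete. Named genes were Kdr, Etv2, Smarca4, Gapdh and Actb, the 4 highest and 4 lowest of each list by net count and its most shared gene, and the genes with the most summits of a class over all genes. Genes named by their isolated summits or by the class of their start were chosen after their values were seen. So were Flt1, Lyz2, Pecam1, Col3a1 and Pdgfra. The members, lists and motifs were chosen with earlier results of these data known. Alternatives were the match distance, equal numbers, score minimum, 1 summit per peak, gene windows, looked-up lists of equal length and removal of dense bins.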

Additional observations from a re-analysis of the deposited data

Results flagged for a closer look

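The presence of fibroblast-only summits in knockdown MEF lists with minus without doxycycline was -14.33 percentage points at day 1 and -4.49 at day 2, but 0.26 at day 7. The signs differ between days, each day is 1 pair of lists, and the difference was not tested. In lists of equal length the day-7 value was -0.09.

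Outside the chromosomes compared, the Flk1-positive list held 27 mitochondrial summits and the fibroblast list 21.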

How the results depend on the processing

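No paired analysis was possible because both samples of a group share 1 deposited list, so no sample could be left out either. The planned motif counts at 50 bp on each side of a summit and at distal summits were not run, since sequence was at hand for promoters only. With a match distance of 100 bp 12699 summits were sorted-only, and with a score of at least 10 in both lists 1793 were sorted-only and 22441 fibroblast-only; with equal numbers the counts were 11941 and 12535. The counts with 500 bp, with 1 summit per peak and without dense bins stayed within 1.5 times. The gene-end share of sorted-only summits was 11.6% with ends within 500 bp, 29.0% with a match distance of 100 bp and 8.2% with 500 bp. For fibroblast-only summits it was 8.02%, 15.6% and 10.6% in the same order, 13% with equal numbers, 23.7% with a score of at least 10 and 11.9% by starts. With equal numbers 17 endothelial genes had more sorted-only and 34 fibroblast genes more fibroblast-only summits, and the net counts of Fosl1 and Mecom reversed, to 1 and 1.

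Presence with minus without doxycycline is given next in points, for knockdown MEF at days 1, 2 and 7 and for EB. For sorted-only summits it was 4.25, 8.82, 0.65 and 5.01 with a match distance of 100 bp. In looked-up lists of equal length it was 10.1, 13.84, -0.12 and 8.1, a reversal at day 7. With equal numbers in the lists compared it was 2.61, 9.49 and, in EB, 5.46. For isolated summits it was 5.03, 13.98, 1.84 and 6.57 with 100 bp and 10.79, 19.69, 1.13 and 10.1 in lists of equal length. With equal numbers it was 2.26, 11.18 and, in EB, 5.65. For fibroblast-only summits it was -10.24, -3.13, 0.1 and 0.03 with 100 bp and -6.75, -1.24, -0.09 and 0.61 in lists of equal length. With equal numbers it was -23.17, -5.92 and, in EB, -0.66. The cause of these shifts was not tested.

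With isolation beyond 5 kb, 12.7% of sorted summits were isolated near endothelial factors, 4.12% near fibroblast genes and 8.46% near all genes. Starts open in the Flk1-positive list only numbered 477 with a summit within 250 bp and 94 within 1 kb. The alternatives on dense bins, starts, isolation and equal looked-up lists were chosen after the data had been seen. Read depth is unknown and limits every statement on absence.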
